A study of Saccharomyces cerevisiae with 18 samples.

Results

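Ergosterol synthesis and its regulators were followed through 30 genes of budding yeast, chosen by gene identifier out of 7126 identifiers in each deposited count table. The set holds 9 genes of the mevalonate pathway, 3 genes that lead from farnesyl diphosphate to lanosterol, 11 genes that lead from lanosterol to ergosterol, the electron donor gene NCP1, the sterol acyltransferase genes ARE1 and ARE2, and the regulator genes ECM22, UPC2, MOT3 and ROX1. The members were found in both tables, all 30 passed the filter on low counts in both experiments, and the lowest count of any member in any library was 172.

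Ergosterol is the main sterol of yeast membranes and is built from acetyl-CoA through mevalonate, farnesyl diphosphate, squalene and lanosterol. Several late steps use oxygen and heme, so cells adjust the pathway to oxygen and sterol supply. Upc2 and Ecm22 are zinc cluster activators that bind sterol elements in ERG promoters. Rox1 is a repressor of hypoxic genes, and Mot3 is a zinc finger protein that represses some of the same genes. Both have been described in yeast as repressors of ERG genes during osmotic stress, downstream of Hog1, the stress-activated kinase of the osmosensing pathway.

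The series measured polyadenylated RNA in 18 libraries of yeast grown in rich medium (YPD) to exponential phase, in 6 groups of 3 biological replicates. Experiment 1 compared wild-type (WT) cells, labelled BY4741, without stress (basal) with WT cells given 0.4 M NaCl for 15 min (salt), using a stranded TruSeq kit. Experiment 2 compared basal and salt cells of WT and of a BY4741 strain in which a KAN cassette replaces HOG1 (hog1::KAN, HOG1-KO), using the Lexogen CORALL kit. The sources used here do not say how many independent deletion clones were used, so strain differences may be those of 1 clone. The experiments differ in kit and were analysed apart.

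Levels are CPM, counts scaled to library size with TMM factors, and each is the value of 1 library unless given as mean ± SD. Salt and strain effects are log2 changes ± standard error (SE) from edgeR's quasi-likelihood test, and a gene is called where its Benjamini-Hochberg adjusted p, taken across the whole table of tested genes, is under 0.05.

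Total counts per library ranged from 11135883 to 16527859. HOG1 counts were between 2559 and 7734 in the WT libraries, and were 0, 1 and 0 in HOG1-KO basal and 0 in each HOG1-KO salt library. The WT of experiment 1 carried transcripts of genes that BY4741 lacks, which goes against its label. LEU2 had 1987 to 3066 counts, MET17 2437 to 6434 and URA3 168 to 407 in its 6 libraries, against at most 1, 2 and 0 in the 12 libraries of experiment 2. The WT of the experiments thus differed in these marker genes, and both strain and kit are confounded with the experiment. Replicate 1 of WT basal and replicate 2 of WT salt in experiment 2 lay apart from the rest of their groups. Compared with the other replicates of its group, WT basal replicate 1 had a median log2 deviation of -0.69 over the 23 enzyme genes, of which 19 were lower, and WT salt replicate 2 had a median of -0.78, also with 19 lower. Over all genes tested the median deviation of each was 0.08, and the 4 regulator genes were higher in both libraries, by medians of 0.16 and 0.30. Member calls in the salt responses of experiment 2 that change without these libraries are given with their values in that fit. Since these libraries deviated in the enzyme genes themselves, a smaller spread of those genes without them is built in.

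**Figure D1:**
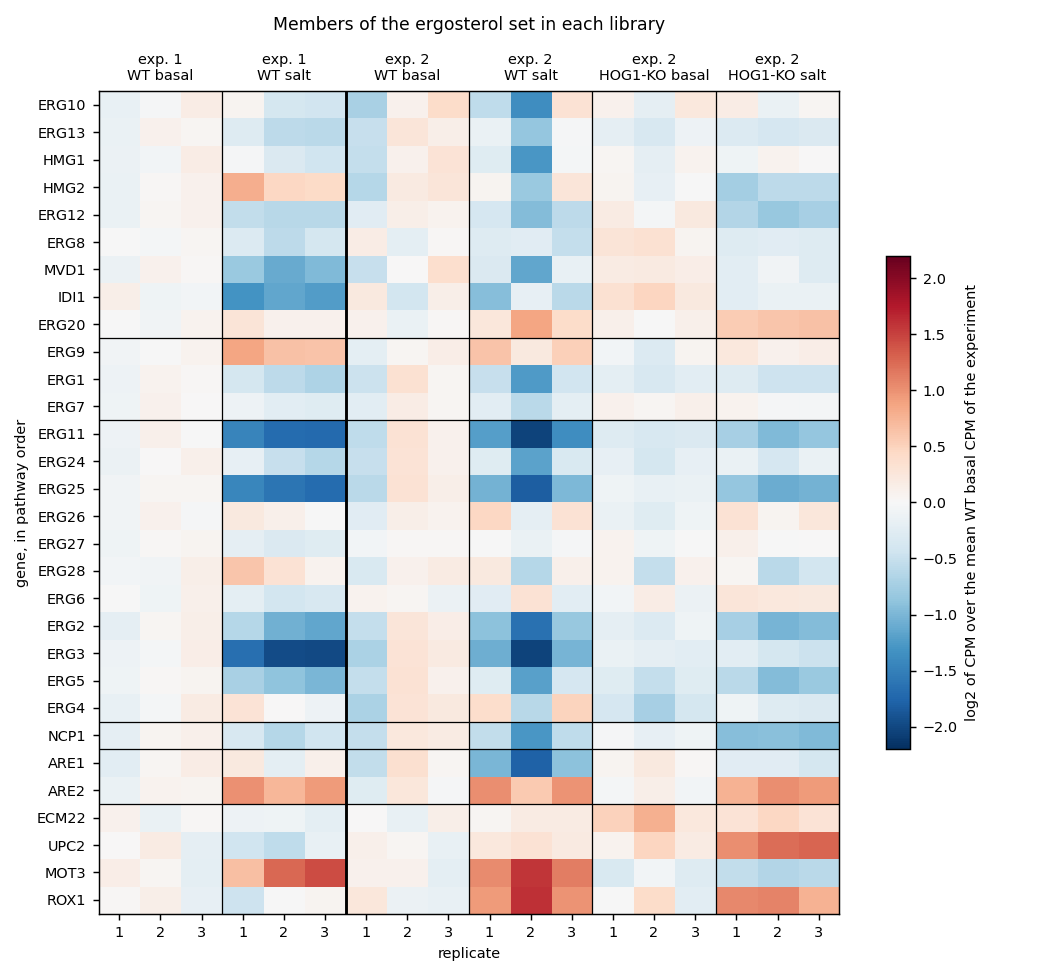
Level of each of the 30 genes in each of the 18 libraries, as log2 of its TMM-scaled CPM over the mean of the WT basal libraries of the same experiment. Rows follow the pathway, columns are replicates by group. Blue cells fill most late-step rows of the WT salt columns, and WT basal replicate 1 and WT salt replicate 2 of experiment 2 are bluer than their neighbours for 19 of 23 enzyme genes.

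The 500 bases upstream of each start codon were searched on both strands for short motifs of the regulators. The stretches below belong to the genes between lanosterol and ergosterol that fell most in WT cells in salt. The last belongs to the regulator gene whose response differed between the strains. Sequences come from the RefSeq R64 genome and are written 5′ to 3′ on the strand of the gene. Capitals mark TCGTATA (the core of the sterol element bound by Upc2 and Ecm22), ATTGTT (the core of the Rox1 site), AGGCA or AGGTA (forms of the Mot3 site), or the reverse complement of one of them.
ERG3, chrXII:253531-253661, plus strand: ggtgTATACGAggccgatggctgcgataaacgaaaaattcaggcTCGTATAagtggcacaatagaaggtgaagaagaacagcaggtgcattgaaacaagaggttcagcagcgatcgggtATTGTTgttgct
ERG25, chrVII:610069-610179, plus strand: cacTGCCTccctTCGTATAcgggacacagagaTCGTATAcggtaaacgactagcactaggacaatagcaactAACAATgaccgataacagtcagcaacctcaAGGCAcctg
ERG2, chrXIII:667337-667377, plus strand: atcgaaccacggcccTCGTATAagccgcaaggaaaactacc
ERG11, chrVIII:122068-122113, minus strand: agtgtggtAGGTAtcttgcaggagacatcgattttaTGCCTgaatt
MOT3, chrXIII:409104-409128, plus strand: ctaatAGGCAacagtAGGCAaatag

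TCGTATA was found upstream of 8 of the 30 genes (26.7%), against 7.0% of 6000 promoters of the same length. These were ERG13, ERG8, ERG1, ERG25, ERG28, ERG6, ERG2 and ERG3, and ERG25 and ERG3 each held it on 2 places of the printed stretches. ATTGTT was found for 19 members (63.3% against 48.9% of promoters), AGGCA for 21 (70.0% against 51.8%) and AGGTA for 14 (46.7% against 57.1%). The stress response element AGGGG was found for 10 members (33.3% against 34.1%). The motif of Hap1, a heme-responsive activator, was found for 0 members and in 0.350% of promoters. ERG11 held AGGTA and AGGCA but no TCGTATA in its 500 bases. A match is a description of these letters and not a measured binding site.

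In salt-treated WT cells, genes of ergosterol synthesis fell more often than they rose, and the furthest falls were those of 3 late genes. ERG3, ERG11 and ERG25, which encode a sterol desaturase, the lanosterol demethylase and a sterol methyl oxidase, had the largest falls in both experiments. ERG9 (squalene synthase), ARE2 (the main sterol acyltransferase of aerobic cells) and MOT3 rose in both experiments. In experiment 1, 5 members were higher and 16 lower at an adjusted p under 0.05, where 35.4% of all genes tested were called higher and 33.8% lower. In experiment 2, 5 members were higher and 10 lower, against a background of 30.1% and 27.2%. The share of members called higher was below the background in both experiments. The share called lower was 53.3% in experiment 1, above the background, and 33.3% in experiment 2, near it. In experiment 2 that share was 23.3% against 24.1% of all genes with the replicate block, and 20% against 22.1% in the WT libraries alone. Whether the replicate numbers pair the WT libraries is not known, so the blocked fit in WT is given as an alternative. The median log2 change of the members was -0.29 in experiment 1 and -0.34 in experiment 2, beside medians of 0.02 and 0.04 over all genes tested. Without WT basal replicate 1 and WT salt replicate 2, the counts of experiment 2 were 6 higher and 15 lower, where 32.6% and 31.7% of all genes were called. In bulk RNA, fewer cells with a transcript and less of the transcript per cell cannot be told apart.

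In HOG1-KO cells, ERG20, ARE2, UPC2 and ROX1 rose in salt, and ERG12, ERG8, IDI1, ERG25, ERG2 and NCP1 fell. These 4 members higher and 6 lower, in the fit without a replicate block, compare with a background of 28.8% and 25.6%. With the block 4 members were lower, and IDI1 and ERG2 were not called (adjusted p = 0.0917 and 0.0537). The median log2 change of the members was -0.15, beside 0.02 for all genes. The members called without the block are 13.3% higher and 20% lower, below the background in each direction. In most other fits the share called lower also stayed below that of all genes. With the replicate block it was 13.3% against 21.9%, and with total counts alone 13.3% against 17.2%. Some fits put it above. DESeq2 gave 30% against 27.1% of all genes. It was 33.3% against 29.8% without WT salt replicate 2 and 40.0% against 34.9% in the HOG1-KO libraries alone. With total counts as the only scaling, the median of all genes in HOG1-KO was 0.19 and that of the members to 0.03, and 65.3% of all calls were then higher in place of 52.9%. Leaving out both deviating WT libraries, from which the spread is also estimated, 8 members were higher and 12 lower in HOG1-KO (26.7% and 40.0%), where 35.4% and 33.7% of all genes were called.

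**Figure D2:**
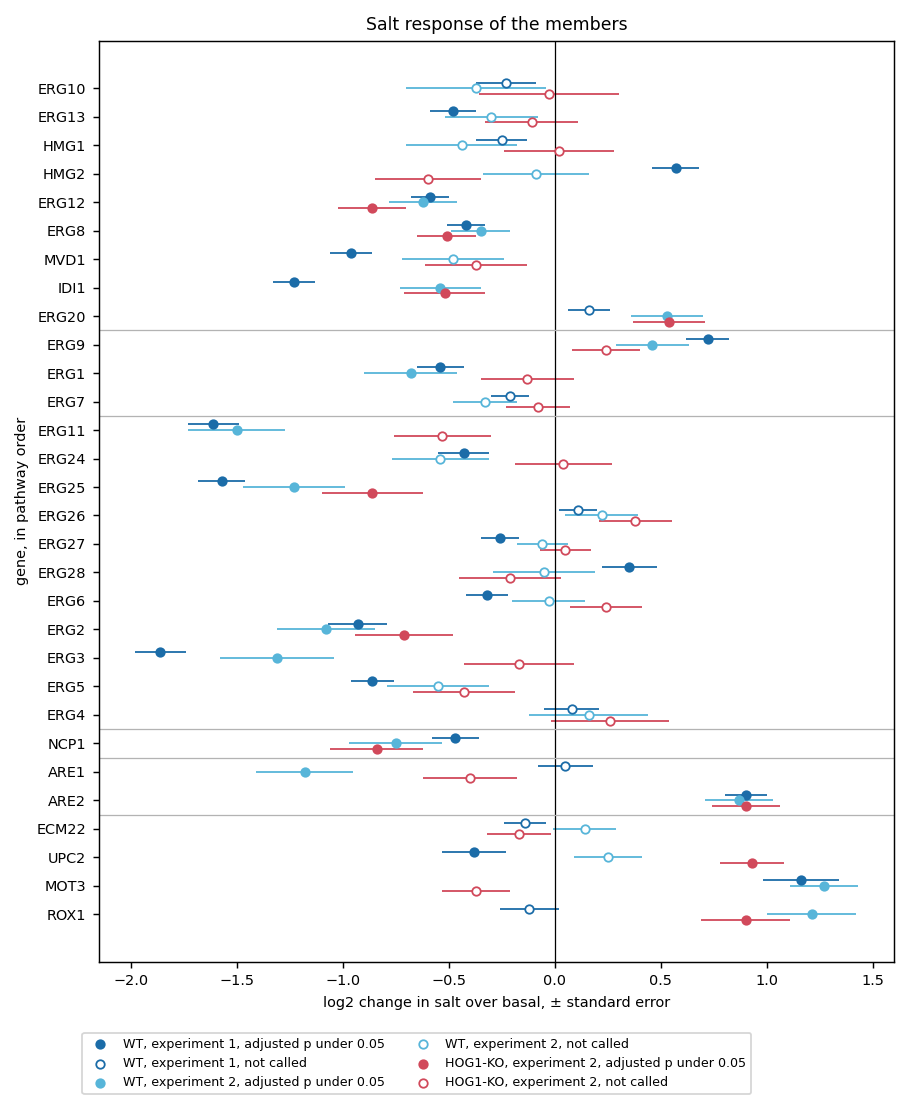
Log2 change in salt over basal of each member, with its standard error, in WT of experiment 1, WT of experiment 2 and HOG1-KO of experiment 2. Filled points passed an adjusted p of 0.05. ERG3 and ERG11 lie at -1.31 or below in both WT comparisons and at -0.17 and -0.53 in HOG1-KO, and MOT3 lies at 1.16 and 1.27 in WT and at -0.37 in HOG1-KO.

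Genes of the mevalonate pathway changed in both directions. Of the 9 genes, 1 rose and 5 fell in WT of experiment 1, and 1 rose and 3 fell in WT of experiment 2 and again in HOG1-KO. Over all genes tested, 35.4%, 30.1% and 28.8% were called higher in these comparisons, and 33.8%, 27.2% and 25.6% lower. ERG12 (YMR208W), which encodes mevalonate kinase, fell in the 3 salt comparisons. Its TMM-scaled CPM in experiment 1 was 102, 115 and 119 in WT basal and 77.2, 73.2 and 73.4 in WT salt, a log2 change of -0.59 ± 0.09 (SE, adjusted p = 1.0e-04). In experiment 2 it was 118, 153 and 148 in WT basal and 108, 71.7 and 94.2 in WT salt (-0.62 ± 0.16, adjusted p = 0.00452). In HOG1-KO it was 158, 136 and 162 basal and 89.0, 78.3 and 84.4 in salt (-0.86 ± 0.16, adjusted p = 4.03e-04). The salt libraries lay below the basal libraries without overlap in each strain and experiment, and the difference of the responses did not pass (-0.24 ± 0.23, adjusted p = 0.638). Such separation is common here: in the salt comparisons, 25.9% to 37.6% of all genes tested lay without overlap in each direction.

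The next kinase gene, ERG8, fell in the 3 comparisons, with log2 changes of -0.42, -0.35 and -0.51, and the call in WT of experiment 2 was narrow (adjusted p = 0.0431) and held in 10 of 21 alternatives; without both deviating libraries it was 0.0507. IDI1, which encodes the isomerase that makes dimethylallyl diphosphate, fell by 1.23 in experiment 1, by 0.54 in WT of experiment 2 and by 0.52 in HOG1-KO. The calls of IDI1 in experiment 2 were narrow: with the replicate block its adjusted p was 0.0781 in WT and 0.0917 in HOG1-KO, and it was over 0.05 without 4 of the WT libraries and without 5 of the HOG1-KO libraries, left out singly. Fitted on the WT libraries of experiment 2 alone, IDI1 had an adjusted p of 0.0749 in WT. MVD1, the decarboxylase gene of the pathway, fell by 0.96 in experiment 1, and its changes of -0.48 and -0.37 in WT and HOG1-KO of experiment 2 did not pass. Without both deviating libraries MVD1 passed in WT (-0.43, adjusted p = 0.00688) and in HOG1-KO (-0.37, adjusted p = 0.00401). ERG20, which encodes farnesyl diphosphate synthase and feeds sterols as well as ubiquinone, dolichol and prenylated proteins, did not pass in experiment 1 (0.16 ± 0.10) and rose in WT (0.53 ± 0.17, adjusted p = 0.0131) and HOG1-KO (0.54 ± 0.17, adjusted p = 0.0125) of experiment 2. Without WT salt replicate 2, the WT value of ERG20 was 0.27 and did not pass (adjusted p = 0.112), nor did it without WT basal replicate 2 (adjusted p = 0.0570) or with the replicate block (0.0576). On the WT libraries of experiment 2 alone the call of ERG20 was also lost (adjusted p = 0.0919). ERG13 (HMG-CoA synthase) fell by 0.48 in experiment 1 and passed neither salt comparison of experiment 2, although in WT it did without both deviating libraries (-0.29, adjusted p = 0.0377), and ERG10, the thiolase gene that opens the pathway, passed in none of the 3.

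HMG1 (YML075C) and HMG2 (YLR450W) encode the HMG-CoA reductases, the rate-controlling step of the pathway. Per kilobase of coding length, HMG1 stood at 76.2 TMM-scaled CPM per kb and HMG2 at 38.4 in WT basal cells of experiment 1, and at 83.8 and 73.7 in WT basal cells of experiment 2. HMG2 in experiment 1 was 109.6, 123 and 129 CPM basal and 210.4, 166 and 162 CPM in salt, a rise of 0.57 ± 0.11 (adjusted p = 6.63e-04) without overlap. In WT of experiment 2 it was 150.4, 264 and 279 basal and 242, 131 and 278 in salt (-0.09 ± 0.25, adjusted p = 0.774), and the groups overlapped. In HOG1-KO it was 241, 205 and 230.3 basal and 137, 156 and 154 in salt, again without overlap, with a log2 change of -0.60 ± 0.25 that did not pass (adjusted p = 0.0576). The same change had an adjusted p of 6.54e-05 fitted on the HOG1-KO libraries alone, 3.97e-05 without both deviating WT libraries and 0.0493 with DESeq2. HMG1 in experiment 1 was 220.1, 232 and 271 CPM basal and 238, 194 and 179 in salt. In experiment 2 HMG1 was 185, 284 and 326 in WT basal, 219.5, 109.5 and 258 in WT salt, 274, 230.3 and 279 in HOG1-KO basal and 249, 279.5 and 267 in HOG1-KO salt. HMG1 overlapped between salt and basal in each comparison, with log2 changes of -0.25, -0.44 and 0.02 that did not pass. Without both deviating libraries its change in WT of experiment 2 was -0.36 and passed (adjusted p = 0.0228).

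The ratio of HMG1 to HMG2 within a library does not depend on the scaling between libraries, and it moved in opposite directions in the strains. In experiment 1 the ratio per kb was 1.99, 1.87 and 2.08 in WT basal and 1.12, 1.16 and 1.10 in WT salt. In WT of experiment 2 it was 1.22, 1.07 and 1.16 basal and 0.898, 0.827 and 0.922 in salt. In HOG1-KO it was 1.13, 1.11 and 1.20 basal and 1.80, 1.78 and 1.72 in salt. The ratio thus fell without overlap in both WT comparisons and rose without overlap in HOG1-KO, and the deviating WT libraries lay on the same side as the others of their groups. The log2 difference in salt between HOG1-KO and WT was 1.00 ± 0.05 (SE, n = 3 each). Each of these differences had an exact permutation p of 0.1 (two-sided), the smallest that 3 libraries against 3 allow, and the basal ratios of the strains overlapped.

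**Figure D3:**
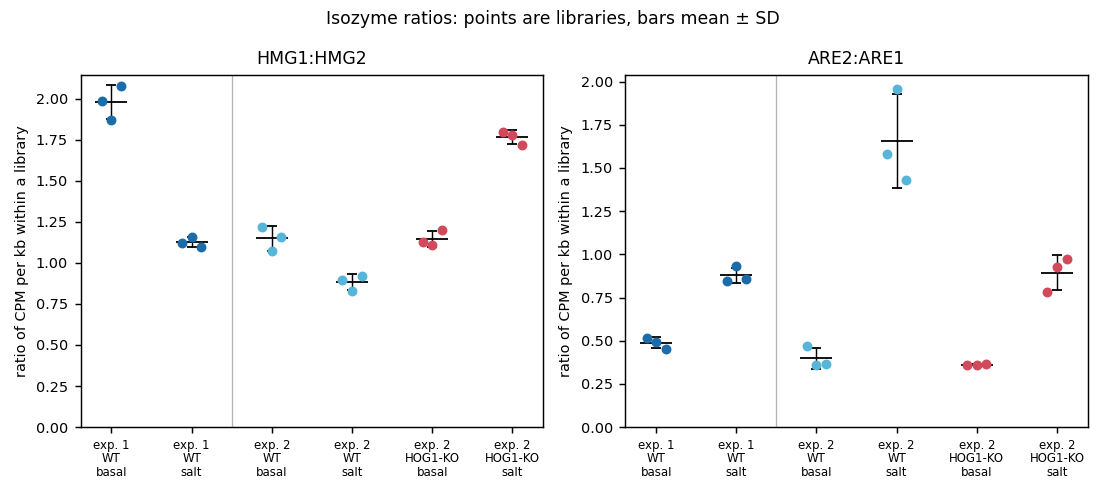
Ratio of HMG1 to HMG2 and of ARE2 to ARE1 in each library, in TMM-scaled CPM per kb of coding length, with points for libraries and bars for mean ± SD (n = 3). The HMG1:HMG2 ratio is lower in salt in both WT comparisons and higher in salt in HOG1-KO (1.76 against 1.15), and the ARE2:ARE1 ratio is higher in salt in each comparison.

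Between farnesyl diphosphate and lanosterol, the first gene rose and the second fell in WT cells. ERG9 (YHR190W), which encodes squalene synthase, the first step committed to sterols, was 239.9, 252 and 269 CPM in WT basal and 461, 399 and 390.2 CPM in WT salt of experiment 1. The salt libraries were higher without overlap, by 0.72 ± 0.10 (adjusted p = 3.87e-05). In experiment 2 ERG9 was 433, 513 and 554 in WT basal and 775, 579 and 717 in WT salt, a rise of 0.46 ± 0.17 (adjusted p = 0.0249). HOG1-KO had 482, 408 and 524 basal and 587, 531 and 552 in salt (0.24 ± 0.16, adjusted p = 0.232; 0.0470 without both deviating WT libraries). The groups did not overlap in either strain, and the call of ERG9 in WT of experiment 2 was lost with the replicate block (adjusted p = 0.0669) and without WT basal replicate 1 or 2 or WT salt replicate 1 or 3 (0.0502 to 0.0919). It was also lost on the WT libraries of experiment 2 alone (adjusted p = 0.126). ERG1, the squalene epoxidase gene, fell by 0.54 in experiment 1 and by 0.68 in WT of experiment 2, and its change in HOG1-KO was -0.13 ± 0.22. The WT call of ERG1 in experiment 2 was lost with the replicate block (adjusted p = 0.0682), without WT basal replicate 2 (0.0985) and on the WT libraries of experiment 2 alone (0.0857). ERG7, the lanosterol synthase gene, passed in none of the comparisons (-0.21, -0.33 and -0.08), but did in WT of experiment 2 without both deviating libraries (-0.32, adjusted p = 0.0128).

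Late genes held the largest falls in WT cells. Of 11 genes, 8 fell and 1 rose in experiment 1, 4 fell in WT of experiment 2, and 2 fell in HOG1-KO. The shares of all genes called lower in these comparisons were 33.8%, 27.2% and 25.6%. ERG11 (YHR007C), which encodes the demethylase inhibited by azole drugs, was 1094, 1276 and 1183 CPM in WT basal and 432, 368 and 361 CPM in WT salt of experiment 1, a fall of 1.61 ± 0.12 on the log2 scale (adjusted p = 8.77e-08). In WT of experiment 2 the values were 994, 1821 and 1564 in WT basal and 627, 354 and 566 in WT salt, a log2 change of -1.50 ± 0.23 (adjusted p = 5.68e-05). HOG1-KO had 1196, 1143 and 1164 basal and 875, 746 and 811 in salt (-0.53 ± 0.23, adjusted p = 0.0647). The fall of ERG11 in HOG1-KO passed with DESeq2 (adjusted p = 0.0497), without both deviating WT libraries (1.25e-04) and on the HOG1-KO libraries alone (1.71e-04), with values of -0.53 to -0.54. In all 3 comparisons the salt libraries lay below the basal libraries without overlap. The mean in HOG1-KO salt was 811 ± 64.3 CPM (SD, n = 3) and that in WT salt 516 ± 143 CPM.

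ERG3 (YLR056W), whose product introduces a double bond into the sterol ring, fell in WT cells of both experiments. In experiment 1 it was 1156, 1207 and 1368 CPM in WT basal and 392, 318 and 316 CPM in WT salt, a fall of 1.86 ± 0.12 (adjusted p = 4.43e-08). In experiment 2 it was 643, 1293 and 1194 in WT basal and 493, 255 and 512 in WT salt, a fall of 1.31 ± 0.27 (adjusted p = 6.75e-04). In HOG1-KO it was 943, 911 and 885 basal and 893, 794 and 749.6 in salt (-0.17 ± 0.26, adjusted p = 0.611). WT salt libraries lay below every basal library, whereas 1 HOG1-KO salt library lay within the basal range.

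ERG25 (YGR060W), which encodes a methyl oxidase of the demethylation complex, fell in the 3 comparisons. It was 799, 860.5 and 861 CPM in WT basal and 312, 275 and 259 CPM in WT salt of experiment 1 (-1.57 ± 0.11, adjusted p = 4.97e-08). It was 790.4, 1471 and 1294 in WT basal and 579, 338 and 596 in WT salt of experiment 2 (-1.23 ± 0.24, adjusted p = 4.22e-04). HOG1-KO had 1116, 1057 and 1065 basal and 654, 555 and 576 in salt (-0.86 ± 0.24, adjusted p = 0.00654). The groups did not overlap in any of the 3 comparisons. ERG2, the sterol isomerase gene, also fell in the 3 comparisons, by 0.93, 1.08 and 0.71, and with the replicate block its adjusted p in HOG1-KO was 0.0537; it was 0.0521 to 0.0626 without HOG1-KO basal replicate 3, salt replicate 2 or salt replicate 3.

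The other late genes changed less. ERG5, the second cytochrome P450 gene of the pathway, fell by 0.86 in experiment 1, with -0.55 and -0.43 in WT and HOG1-KO of experiment 2, neither of which passed. Both did without the deviating libraries (adjusted p = 0.00294 and 0.00208). ERG24, a sterol reductase gene, fell by 0.43 in experiment 1, with -0.54 and 0.04 in experiment 2, the former passing without both deviating libraries (-0.50, adjusted p = 0.00198). ERG6 (sterol methyltransferase) and ERG27 (keto reductase) fell by 0.32 and 0.26 in experiment 1, and ERG28, whose product holds the demethylation enzymes together, rose by 0.35. ERG6, ERG27 and ERG28 passed in neither salt comparison of experiment 2, and each call in experiment 1 was lost without 1 or more single libraries. ERG26, the decarboxylase gene, and ERG4, the reductase gene of the last step, passed in none of the 3 comparisons, with log2 changes between 0.08 and 0.38. Without both deviating WT libraries, ERG26 (0.38, adjusted p = 0.00244), ERG4 (0.26, 0.0411) and ERG6 (0.24, 0.0359) were higher in HOG1-KO in salt, and ERG26 also passed on the HOG1-KO libraries alone (0.00369).

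The enzyme genes were also compared with each other inside each library, as the log2 level of a gene over the median of the 23 enzyme genes of that library, a measure added after the data were seen. On this scale ERG11 in salt changed by -1.23 ± 0.04 in experiment 1, by -1.15 ± 0.22 in WT of experiment 2 and by -0.62 ± 0.04 in HOG1-KO (SE, n = 3 each). ERG3 changed by -1.48 ± 0.08, -0.97 ± 0.30 and -0.26 ± 0.07. ERG9 changed by 1.09 ± 0.07, 0.81 ± 0.13 and 0.16 ± 0.08. On this scale ERG11 and ERG3 fell in each comparison without overlap of the groups, and ERG9 rose without overlap in both WT comparisons. These genes are among those with the largest changes in the same libraries, so their shift from the median adds no separate support. Within HOG1-KO, ERG25, ERG12 and ERG2 changed further than ERG11, ERG3 and ERG9 did, by -0.95, -0.94 and -0.80. The response differences of ERG3 and ERG11 on this scale were 0.71 ± 0.31 and 0.53 ± 0.23. The largest of the opposite sign were those of HMG2, ERG12 and ERG9, at -0.93 ± 0.32, -0.67 ± 0.12 and -0.66 ± 0.15. These differences were not tested.

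NCP1 (YHR042W) encodes the NADPH reductase that passes electrons to the P450 enzymes Erg11 and Erg5, and it fell in the 3 comparisons. It was 445, 534 and 555 CPM in WT basal and 399, 329.9 and 377 CPM in WT salt of experiment 1 (-0.47 ± 0.11, adjusted p = 0.00286). The second experiment had 458, 779.5 and 749 in WT basal and 457, 271 and 452 in WT salt (-0.75 ± 0.22, adjusted p = 0.00862). Fitted on the WT libraries of experiment 2 alone, that call was lost (adjusted p = 0.0581). HOG1-KO had 647, 587 and 621 basal and 345, 352 and 337 in salt (-0.84 ± 0.22, adjusted p = 0.00455). The groups did not overlap in any of the 3 comparisons, although the highest WT salt library and the lowest WT basal library of experiment 2 were nearly level.

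ARE2 (YNR019W) and ARE1 (YCR048W) encode the acyltransferases that store sterols as esters in lipid droplets. ARE2 rose in the 3 comparisons by 0.90 ± 0.10 (adjusted p = 7.25e-06), 0.87 ± 0.16 (2.66e-04) and 0.90 ± 0.16 (2.26e-04). Its CPM was 63.6, 74.5 and 73.5 in WT basal and 142, 116 and 136 in WT salt of experiment 1, and 45.9, 65.0 and 54.2 in WT basal and 112, 81.5 and 109 in WT salt of experiment 2. HOG1-KO had 53.5, 59.8 and 53.0 basal and 93.8, 111 and 106 in salt. The salt libraries were above the basal libraries without overlap each time.

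ARE1 fell in WT of experiment 2 and did not pass in experiment 1, a difference between experiments that was not tested. It was 117, 143 and 154 CPM in WT basal and 159.5, 119 and 149.8 CPM in WT salt of experiment 1 (0.05 ± 0.13, adjusted p = 0.756). In experiment 2 it was 93.2, 173 and 140.3 in WT basal and 67.2, 39.4 and 72.5 in WT salt, a fall of 1.18 ± 0.23 (adjusted p = 3.98e-04). HOG1-KO had 141.5, 157 and 139 basal and 114, 114 and 103 in salt (-0.40 ± 0.22, adjusted p = 0.143). That change passed without both deviating WT libraries (adjusted p = 0.00217) and on the HOG1-KO libraries alone (0.00131). The groups overlapped in experiment 1 and were apart in both strains of experiment 2. ARE1 shares 298 bases with the dubious gene YCR050C, and the strand setting of the counting is not given in the sources used here, so its level is uncertain to that extent. YCR050C had at most 6 counts in any library.

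Within a library, the ratio of ARE2 to ARE1 per kb was higher in salt in each comparison, without overlap. Its means went from 0.488 ± 0.0327 to 0.878 ± 0.0460 in experiment 1, from 0.398 ± 0.0609 to 1.66 ± 0.273 in WT of experiment 2, and from 0.361 ± 0.00199 to 0.894 ± 0.0996 in HOG1-KO (SD, n = 3). The ratio in salt was lower in HOG1-KO than in WT by 0.89 ± 0.16 on the log2 scale. The exact permutation p of each difference was 0.1, the smallest possible here.

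MOT3 (YMR070W), which encodes the zinc finger regulator, rose in WT cells of both experiments and did not rise in HOG1-KO. In experiment 1 it was 22.9, 21.3 and 17.7 CPM in WT basal and 32.5, 49.7 and 55.5 CPM in WT salt, a rise of 1.16 ± 0.18 (adjusted p = 1.18e-04). CPM in experiment 2 was 43.0, 43.0 and 34.8 in WT basal and 82.7, 119 and 88.2 in WT salt, a rise of 1.27 ± 0.16 (adjusted p = 5.76e-06). In HOG1-KO it was 31.8, 38.5 and 33.1 basal and 27.6, 25.9 and 26.7 in salt (-0.37 ± 0.16, adjusted p = 0.0641). MOT3 was called lower in HOG1-KO salt with DESeq2 (adjusted p = 0.0469), without WT salt replicate 2 (0.0163), without both deviating WT libraries (0.00792) and on the HOG1-KO libraries alone (0.00684). The WT salt libraries lay above their basal libraries in both experiments, and the HOG1-KO salt libraries lay below theirs. The response in HOG1-KO was lower than in WT by 1.63 ± 0.22 on the log2 scale (adjusted p = 1.64e-04), and MOT3 was the 1 member of 30 whose difference of responses passed.

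ROX1 (YPR065W), the gene of the hypoxic repressor, rose in both strains of experiment 2 and did not pass in experiment 1. It was 41.3, 44.2 and 35.8 CPM in WT basal and 29.3, 40.1 and 42.0 CPM in WT salt of experiment 1 (-0.12 ± 0.14, adjusted p = 0.477), where the groups overlapped. In experiment 2 it was 94.3, 73.0 and 71.0 in WT basal and 151, 241 and 158 in WT salt (1.21 ± 0.21, adjusted p = 1.54e-04). HOG1-KO had 78.7, 105 and 67.5 basal and 166, 169 and 135 in salt (0.90 ± 0.21, adjusted p = 0.00191). In experiment 2 every salt library lay above every basal library of its strain, and the difference of responses did not pass (-0.31 ± 0.29, adjusted p = 0.640).

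UPC2 (YDR213W), which encodes an activator of ERG genes and of sterol uptake, rose in HOG1-KO. It was 19.2, 25.5 and 20.7 CPM basal and 37.1, 43.1 and 44.5 CPM in salt, a rise of 0.93 ± 0.15 (adjusted p = 1.11e-04) without overlap. In WT of experiment 2 it was 19.8, 18.8 and 16.4 basal and 21.6, 22.9 and 21.0 in salt (0.25 ± 0.16, adjusted p = 0.176). In experiment 1 it was 24.0, 27.2 and 20.9 basal and 17.7, 16.2 and 21.4 in salt, a fall of 0.38 ± 0.15 (adjusted p = 0.0384) with overlapping groups that held in 5 of 12 alternatives. The difference of responses was 0.68 ± 0.22 (adjusted p = 0.0656).

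ECM22 (YLR228C), the paralog of UPC2, passed in none of the salt comparisons. It was 56.6, 47.6 and 53.9 CPM in WT basal and 48.9, 49.2 and 45.6 CPM in WT salt of experiment 1 (-0.14 ± 0.10). In experiment 2 it was 69.0, 61.4 and 74.7 in WT basal, 70.6, 77.8 and 77.9 in WT salt (0.14 ± 0.15), 97.1, 117 and 80.8 in HOG1-KO basal and 84.2, 94.3 and 84.4 in HOG1-KO salt (-0.17 ± 0.15). Per kb, the ratio of ECM22 to UPC2 went from 5.06 ± 0.650 to 2.38 ± 0.220 in HOG1-KO, without overlap. In WT it went from 2.50 ± 0.481 to 2.97 ± 0.520 in experiment 1 and from 4.23 ± 0.762 to 3.88 ± 0.257 in experiment 2, with overlap. The ratio of MOT3 to ROX1 per kb stood at 0.384 ± 0.0519 and 0.400 ± 0.0253 in WT basal and salt of experiment 2, and at 0.316 ± 0.0482 and 0.130 ± 0.0175 in HOG1-KO (SD, n = 3). In experiment 1 this ratio rose from 0.384 ± 0.0285 in WT basal to 0.919 ± 0.0800 in WT salt, without overlap.

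**Figure D4:**
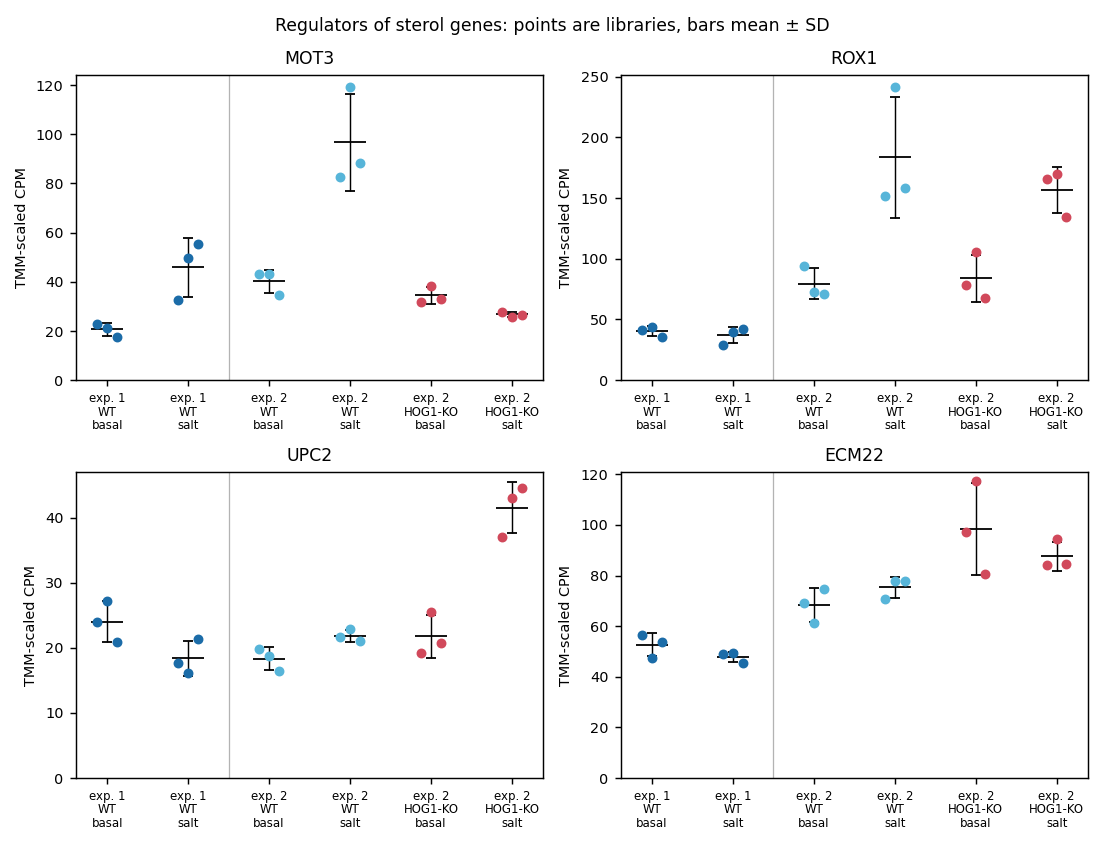
TMM-scaled CPM of the 4 regulator genes, with points for libraries and bars for mean ± SD (n = 3). MOT3 is higher in salt in WT of both experiments and lower in salt in HOG1-KO, ROX1 is higher in salt in both strains of experiment 2, and UPC2 is highest in HOG1-KO salt (41.5 CPM).

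Without stress, no difference between the strains passed for any member when the 12 libraries were fitted. At basal, 0 members were called with edgeR, against a background of 0.475% higher and 0.508% lower. At an unadjusted p under 0.05 there was 1 member, ECM22, higher by 0.52 ± 0.15 in HOG1-KO (adjusted p = 0.142), which DESeq2 called (adjusted p = 0.0456). Without the deviating WT libraries, 2 members were higher and 10 lower in HOG1-KO at basal, among them ERG4 (-0.74), ERG11 (-0.54) and ERG5 (-0.55), where 5.72% and 11.4% of all genes were called.

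In salt, 4 members were higher in HOG1-KO than in WT and 1 was lower, against a background of 12.8% and 12.4%. The higher members were ERG3 (0.95 ± 0.27, adjusted p = 0.0157), ERG11 (0.65 ± 0.23, 0.0491), ARE1 (0.89 ± 0.23, 0.00871) and UPC2 (0.93 ± 0.15, 2.98e-04). The lower member was MOT3 (-1.86 ± 0.16, adjusted p = 4.21e-07). The ERG11 difference was narrow and held in 7 of 20 alternatives, with an adjusted p of 0.0964 without WT salt replicate 2. ERG3 was lost without HOG1-KO salt replicate 1 (adjusted p = 0.0644). With scaling by total counts alone, 8 members were higher and 1 lower, and 69.0% of all calls were higher in place of 50.8%. Without both deviating WT libraries, 7 members were higher and 7 lower (23.3% each), at the share of all genes in that fit, 24.2% and 23.4%. The lower members included HMG2 (-0.80, adjusted p = 1.21e-05) and ERG4 (-0.67, adjusted p = 1.79e-04).

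The difference between the salt responses of the strains asks whether loss of HOG1 changes a response. Of the members, 0 had a higher and 1 a lower response in HOG1-KO, against a background of 4.57% and 5.24%. ERG3 (1.15 ± 0.37, adjusted p = 0.0720), ERG11 (0.98 ± 0.32, 0.0781), UPC2 (0.68 ± 0.22, 0.0656) and ARE1 (0.78 ± 0.32, 0.157) did not pass, and 5 members had an unadjusted p under 0.05. DESeq2 called ERG3, ERG11 and UPC2 higher, with adjusted p of 0.0261, 0.0283 and 0.0115. Without both deviating WT libraries, 7 members had a higher response in HOG1-KO, where 9.93% of all genes were called higher and 10.4% lower: ERG3 (1.14 ± 0.15, adjusted p = 2.5e-05), ERG11 (0.98 ± 0.15, 1.73e-04), ARE1 (0.76), UPC2 (0.66), ERG24 (0.53), ERG1 (0.51) and ERG6 (0.44). In that fit MOT3 (-1.51 ± 0.18) and HMG2 (-0.54 ± 0.15, adjusted p = 0.0203) had a lower response. The ERG11 difference was the same size in both fits, while the standard errors of ERG3 and ERG11 went from 0.37 and 0.32 to 0.15. The libraries left out deviated in the enzyme genes themselves, so smaller standard errors there were built into that fit. Calls gained in it are not separate support for a difference. ERG25, ERG2 and ERG12, which fell in both strains, had response differences of 0.37, 0.37 and -0.24 and passed in neither fit.

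**Figure D5:**
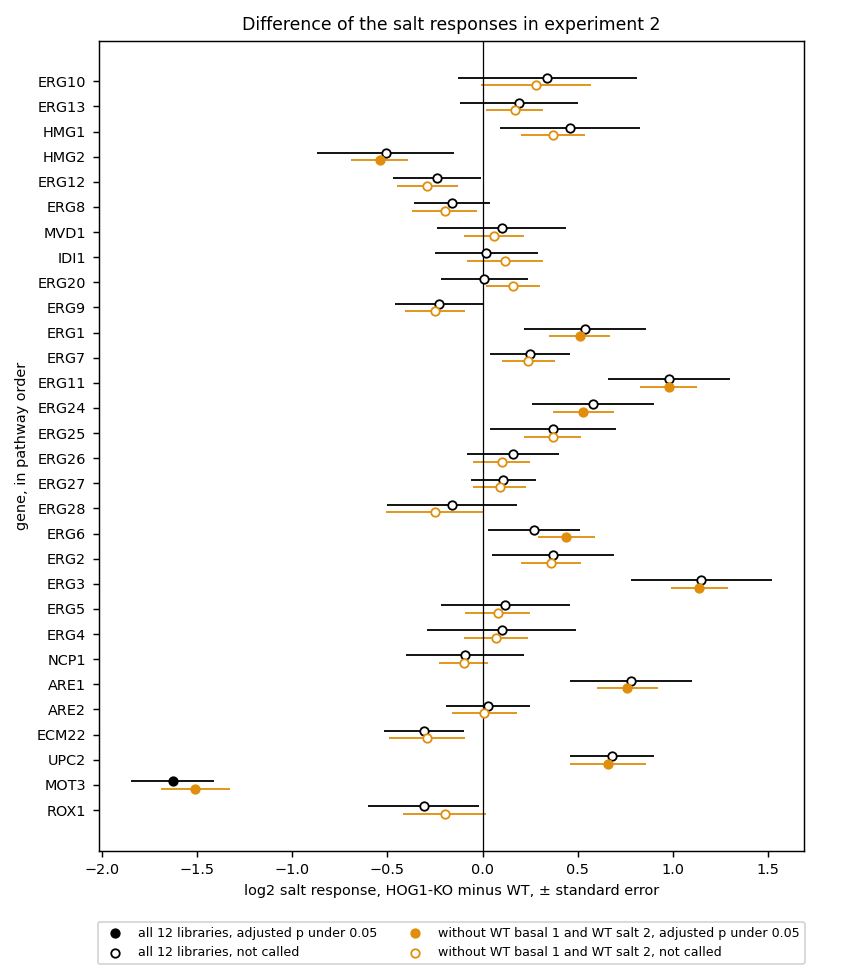
Difference of the salt response, HOG1-KO minus WT, of each member in experiment 2, with its standard error, fitted on the 12 libraries (black) and without WT basal replicate 1 and WT salt replicate 2 (orange). Filled points passed an adjusted p of 0.05. MOT3 passes in both fits, and ERG3 and ERG11 keep values near 1.15 and 0.98 with shorter bars in the second.

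Members with TCGTATA upstream were also set beside those without it. Of the 8 genes with the element, 7 fell and 1 rose in experiment 1, 5 fell in WT of experiment 2, and 3 fell in HOG1-KO. The shares of all genes called lower were 33.8%, 27.2% and 25.6%. The median log2 changes of the 8 genes were -0.51, -0.51 and -0.19, beside -0.22, -0.21 and -0.06 for the 22 members without it. The 8 are all enzyme genes, whereas the 22 include the regulator genes, ARE1, ARE2 and NCP1, so the groups differ in make-up. The medians of all 23 enzyme genes were -0.42, -0.37 and -0.13. Both ERG11, which lacks the letters, and ERG3 and ERG25, which hold them 2 times each, were among the largest falls.

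Genes that touch the pathway gave a mixed picture. Beside the counts in this and the next paragraph stand the shares of all genes in WT of experiment 1, WT of experiment 2 and HOG1-KO. These were 35.4%, 30.1% and 28.8% called higher, and 33.8%, 27.2% and 25.6% called lower. Of 25 genes of sterol uptake, transport and ester breakdown, 13 rose and 8 fell in experiment 1, 10 rose and 8 fell in WT of experiment 2, and 6 rose and 5 fell in HOG1-KO. LAM4, which encodes a sterol transfer protein at membrane contacts, rose by 1.82 ± 0.11 and 1.79 ± 0.15 in WT, and YEH1, a steryl ester hydrolase gene, fell, with log2 changes of -1.50 ± 0.09 and -1.39 ± 0.14. In HOG1-KO, LAM4 rose by 1.14 ± 0.15 and YEH1 did not pass (0.10 ± 0.14), and the response of YEH1 differed between the strains (1.49 ± 0.20, adjusted p = 1.13e-04). HES1, an oxysterol-binding protein gene, rose by 0.67 ± 0.26 and 1.41 ± 0.21 in WT and by 2.89 ± 0.20 in HOG1-KO. The medians of the list were 0.25, 0.17 and 0.12. Of 6 genes of neutral lipid synthesis and breakdown, 5 rose in experiment 1, 5 rose and 1 fell in WT of experiment 2, and 3 rose and 1 fell in HOG1-KO, with medians of 0.86, 0.60 and 0.44. DGA1, which makes triacylglycerol, rose by 1.25 ± 0.10 in experiment 1, by 1.37 ± 0.14 in WT of experiment 2 and by 0.50 ± 0.14 in HOG1-KO.

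Among 12 genes of heme synthesis and P450 partners, CYB5 and MCR1 moved most. CYB5 encodes the cytochrome b5 that serves sterol and lipid oxidation, and it fell by 2.15 ± 0.13, 2.13 ± 0.14 and 1.39 ± 0.14 in WT of experiment 1, WT of experiment 2 and HOG1-KO. MCR1 encodes a cytochrome b5 reductase of mitochondria, and it rose by 3.10 ± 0.11, 2.72 ± 0.14 and 1.59 ± 0.14. In the list, 4 rose and 2 fell in experiment 1, 1 rose and 5 fell in WT of experiment 2, and 2 rose and 3 fell in HOG1-KO, with medians of 0.15, -0.09 and -0.20. Of 11 genes for degradation of sterol enzymes, NSG2, which stabilises HMG-CoA reductase, rose by 1.51 ± 0.09, 1.03 ± 0.13 and 0.55 ± 0.13, and CUE1, which recruits a ubiquitin-conjugating enzyme, fell by 0.80 ± 0.10, 0.87 ± 0.13 and 0.78 ± 0.13. In that list 5 rose and 4 fell, 4 rose and 3 fell, and 2 rose and 2 fell, with medians of -0.04, -0.16 and -0.07.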

How the data were processed

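Each experiment came as 1 deposited table of raw counts, whose columns matched the 18 samples by name. Per the submitters' processing notes, HISAT2 2.1.0, featureCounts 1.5.1 and the R64 genome were used, and the strand setting and multi-mapping rule were not given in the sources used here. Reads were single-end and 50 bp long. Starting from these counts, edgeR 4.0.16 in R 4.3.3 was run with TMM scaling, filterByExpr and a robust quasi-likelihood test on contrasts of group means, with Benjamini-Hochberg adjustment over 5878 genes in experiment 1 (6 libraries) and 6107 genes in experiment 2 (12 libraries, 1 estimate of spread). The number of contrasts was 6. The code was tested on simulated data. CPM per kb uses the coding length in RefSeq R64. Ratios were compared with exact two-sided permutation tests. Counting error is not the limit here, since each member had at least 172 counts in each library.

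The members, the gene lists and the choice of libraries to leave out were made with earlier results of these data known. Values in each library are given for the regulators, the reductases, the acyltransferases, NCP1, members with a called response difference, and the 3 largest called changes each way in each salt comparison. Of the other lists, called genes with the 2 largest changes each way may be named. In HOG1-KO, the deviations of basal and salt libraries of the same number from their group means correlated over 6107 genes at 0.163, 0.326 and 0.179, so these numbers may be pairs. The main test has no block, and the blocked value is given where it changes a call. In WT, libraries of the same number did not all correlate in this way, which cannot show that they were unpaired. WT calls lost with the block are therefore given as an alternative. Alternatives were DESeq2 1.42.0, other scalings and filters, a replicate block, fits without single libraries or both deviating WT libraries, and fits on the compared libraries alone.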

Additional observations from a re-analysis of the deposited data

Results flagged for a closer look

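MOT3 differed between the strains in its response to salt. The response in HOG1-KO minus that in WT was -1.63 ± 0.22 on the log2 scale (edgeR, adjusted p = 1.64e-04), by the test of the difference itself. Its 3 salt libraries lay above the basal libraries in WT and below them in HOG1-KO. The difference passed in 20 of 20 alternatives, between -1.74 and -1.40. In the deviating libraries, WT basal replicate 1 and WT salt replicate 2, MOT3 stood at 43.0 and 119 CPM, and without them the difference was -1.51.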

How the results depend on the processing

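No member changed direction in any alternative where it was called. Over members and alternatives, 3227 values kept their side of the threshold, 74 lost a call and 119 gained one. The counts below moved by more than 1.5 times, and the cause was not tested. For the salt response of WT in experiment 2, members higher numbered 3 with the replicate block and 3 in the libraries compared alone, and members lower 6 in the libraries compared alone; leaving out single libraries gave 3 to 5 higher and 8 to 14 lower. For HOG1-KO in salt, 8 were higher without both deviating WT libraries, and 12 were lower there and 12 in the libraries compared alone (single libraries: 4 to 5 and 4 to 10). Between the strains at basal, DESeq2 called 1 member higher and 135 genes in all, and without both deviating libraries 2 members were higher, 10 lower and 1053 genes called (single libraries: 0 to 0 members, 23 to 124 genes). Between the strains in salt, 8 members were higher by total counts, and without both deviating libraries 7 were higher, 7 lower and 2924 genes called (single libraries: 2 to 5 higher, 1 to 3 lower, 1063 to 2207 genes). For the response difference, members higher numbered 3 with DESeq2, 1 with RLE factors, 2 by total counts, 1 with at least 10 CPM in 3 libraries and 7 without both deviating libraries, where 2 were lower and 1248 genes called; the replicate block called 360 genes (single libraries: 0 to 3 higher, 1 to 1 lower, 441 to 996 genes).

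With total counts as the only scaling, all genes of experiment 2 had a median log2 change of 0.21 for WT, 0.19 for HOG1-KO, 0.17 between the strains at basal and 0.16 between them in salt, and the members had medians of -0.19, 0.03, 0.15 and 0.34. In WT, same-number correlations were -0.418, 0.0347 and -0.353 in experiment 1 and -0.536, -0.519 and 0.504 in experiment 2. They cannot settle whether these libraries were paired, since both deviating libraries enter the values of experiment 2. The highest WT correlation in experiment 2 was 0.761, between basal replicate 1 and salt replicate 2, the deviating libraries. A block within strains could not be fitted for the contrasts between strains, and a block shared by the strains, added after the data were seen, called 3 members higher in salt (ERG11 was lost) and 0 at basal. In HOG1-KO the block changed the calls of IDI1 and ERG2 alone. Several calls near the threshold depend on single libraries: UPC2, ERG6, ERG27 and ERG28 in experiment 1, ERG8, IDI1, ERG20, ERG9 and ERG1 in WT of experiment 2, and IDI1 and ERG2 in HOG1-KO. With 3 libraries a group, exact tests of ratios cannot reach p under 0.1.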

Other observations

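Hypoxic and cell wall genes reported as targets of Rox1 or Mot3 changed in both directions. For the lists of this section, the salt comparisons called 35.4%, 30.1% and 28.8% of all genes higher. They called 33.8%, 27.2% and 25.6% lower, in the order WT of experiment 1, WT of experiment 2 and HOG1-KO. Of 14 genes, 3 rose and 6 fell in WT of experiment 1, 2 rose and 5 fell in WT of experiment 2, and 5 rose and 3 fell in HOG1-KO, with median log2 changes of -0.03, -0.32 and 0.26. CYC7, an isoform of cytochrome c, rose by 5.66 ± 0.15, 5.24 ± 0.33 and 4.52 ± 0.32, and COX5B, an isoform of a cytochrome oxidase subunit, by 2.43 ± 0.12, 3.02 ± 0.20 and 1.83 ± 0.19. OLE1, the fatty acid desaturase gene, fell by 2.00 ± 0.13, 1.96 ± 0.23 and 0.90 ± 0.23, and AAC3, an ADP/ATP carrier gene, by 2.04 ± 0.13, 1.94 ± 0.21 and 0.74 ± 0.20. The list holds DAN2 and DAN3, which belong to a family of near-identical genes and whose counts are uncertain because the handling of multi-mapped reads is not given. In salt, 8 of the 14 were higher and 2 lower in HOG1-KO than in WT, against 12.8% and 12.4% of all genes. A higher response was called for 4 and a lower one for 1, against 4.57% and 5.24%.

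Of 11 genes on other branches of the isoprenoid pathway, 4 rose and 3 fell in experiment 1, and 3 rose and 3 fell in each strain of experiment 2, with medians of -0.11, 0.06 and 0.22. RER2, which makes dolichol precursors, fell by 0.92 ± 0.13, 1.09 ± 0.17 and 0.82 ± 0.17. Of 7 other regulators of sterol or hypoxic genes, 2 rose and 2 fell in experiment 1, 3 rose and 2 fell in WT of experiment 2, and 3 rose and 4 fell in HOG1-KO, with medians of 0.22, -0.07 and -0.41. HAP1, a heme-responsive activator gene, rose by 1.05 ± 0.09, 1.08 ± 0.16 and 0.71 ± 0.16, and SUT2, a regulator gene of sterol uptake, fell by 0.95 ± 0.13, 0.92 ± 0.26 and 0.67 ± 0.25.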
